A study of Homo sapiens with 4 samples.

Results

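The peaks described here are stretches of the genome whose RNA was well covered by reads in both kinds of library. They carried a lower value after PRMT5 RNA immunoprecipitation (RIP) than in input RNA. They were chosen by 3 measured values: a peak had to have at least 1 RPM (reads scaled to library size) in PRMT5 RIP, at least 1 RPM in input, and a RIP value below its input value. Of the 18993 peaks in the deposited list, 8876 reached both minimums, and 681 of these lay below input, which is 7.67% of the well-covered peaks. The 681 peaks were assigned to 495 gene identifiers, and 592 of them received a gene symbol. Another 48 peaks lay below input but under 1 RPM and were not considered further. Because RIP and input RPM chose these peaks, their ratios are given as a description with no test, and what the rule did not use (gene, RNA class, width, position along the gene) was compared with other well-covered peaks of similar input RPM.

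The study asked which RNAs PRMT5 contacts in T cells. The cells were Jurkat, a leukemia-derived human line of T cell type that has long been established in culture, treated with PHA, a T cell mitogen, for 48 hours and then crosslinked with UV light, which the sample labels give as 264 nm at 400 mJ and the methods as another wavelength. All libraries share this cell line, stimulation and crosslinking: 2 PRMT5 RIP libraries hold RNA recovered with PRMT5 by FLAG immunoprecipitation, and 2 input libraries hold RNA that was not immunoprecipitated. Each peak carries a single pooled RIP value and a single pooled input value. No spread between replicates therefore exists for any value below, no test across samples could be made, and a difference between peaks cannot be set against replicate error.

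PRMT5 is an arginine methyltransferase that works in a complex with the WD repeat protein WDR77 and is known for methylating Sm proteins, histones and other nucleic acid binding proteins. In a RIP experiment, RNA that is recovered with the protein takes a larger share of the RIP library than of the input library, and abundant cellular RNA that is not recovered takes a smaller share. Because each library is scaled to the same total, a large share taken by some RNAs lowers the RPM of all others, so that a value below input is relative to the rest of the library.

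The T cell identity of the line was visible in the list: 11 of 15 T cell marker genes had a peak, with summed input values from 0.69 RPM (CD5) to 417.11 RPM (CD3D, a CD3 chain of the T cell receptor), whereas of 16 markers of B cells, myeloid cells, erythroid cells and epithelium, CD79A alone had one, at 37.3 RPM in input. Summed over the list, RIP held 755969 RPM and input 489424 RPM, a ratio of 1.54, and the median log2 ratio of RIP to input RPM was 0.83 over the 8876 well-covered peaks. The ratio of the deposited RPM values is not the fold change that the authors' peak caller gave. The caller's log2 fold change (log2FC) was above 0 at 646 of the 681 peaks, below 0 at 5 and not given at 30, with a median of 0.61, and it exceeded the log2 RPM ratio by a median of 0.73 at these peaks and 0.78 at all well-covered peaks. On the caller's scale 10 well-covered peaks lay below 0, of which 5 were among the 681. Below input therefore means below input in deposited RPM throughout, and the scaling behind the caller's values is not stated.

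The RNA under 5 peaks of 25 nt, the narrowest width in the list, is shown here from RefSeq (GRCh38.p14). In all, 11 of the 681 peaks lie wholly inside a RefSeq hairpin or promoter window. The 5 are printed because 25 nt peaks made up a large part of the 681 peaks, as described below, and because the first pair comes from copies of a hairpin gene. Sequences are 5′ to 3′ on the strand of the peak, and capitals mark the 12 bases that the first and second share.
PTMA: TACTTAGCTGTActataagtagttg
MIR1244-2 locus: ttttttgtgtatgTACTTAGCTGTA
SPAG5: gaacatggcgtcctcgacttggtct
COXFA4: gcttagggcctggtggctaggtcgg
POLR2J2 locus: gggctctggtggcggcggtggcgga
The first, at chr2:231713352-231713376 on the plus strand in PTMA (prothymosin alpha), lies inside the MIR1244-1 hairpin and had 2.95 RPM in RIP and 3.80 RPM in input. The second, at chr5:118974611-118974635 on the plus strand, lies inside the hairpin of another copy, MIR1244-2, and had 2.30 and 2.85 RPM. Both were picked from the 681, and other loci with these 12 bases were not searched for. The third lies just downstream of the annotated start of SPAG5 (a mitotic spindle protein) at chr17:28598978-28599002, minus strand, with 2.41 RPM in RIP and 3.02 RPM in input. The fourth, in COXFA4 (a cytochrome c oxidase subunit) at chr7:10940094-10940118, minus strand, had 2.25 and 2.63 RPM, and the fifth, at chr7:102671635-102671659, minus strand, had 14.3 and 14.8 RPM. Their GC content ranged from 28% to 80%.

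The depletion was shallow at most peaks. The RIP to input ratio of the 681 peaks had a median of 0.898 (median log2 ratio −0.16) against 1.86 at the other 8195 well-covered peaks, and 330 of the 681 had a ratio of at least 0.9. A ratio of 0.8 or less was reached by 128 peaks and a ratio under 0.5 by 1. Just inside the limit stood a peak of MTCH1 with 11.01 RPM in RIP and 11.02 RPM in input, and 12 of the 681 differed from input by no more than the rounding step of 0.01 RPM. Just outside it, 7 well-covered peaks had equal values, among them a 25 nt peak of TPI1 with 1.62 RPM in both. At the minimum of 1 RPM, ZWINT (1.00 in RIP, 1.06 in input) was inside, and SSRP1 (0.99 and 1.05) was outside.

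**Figure D1:**
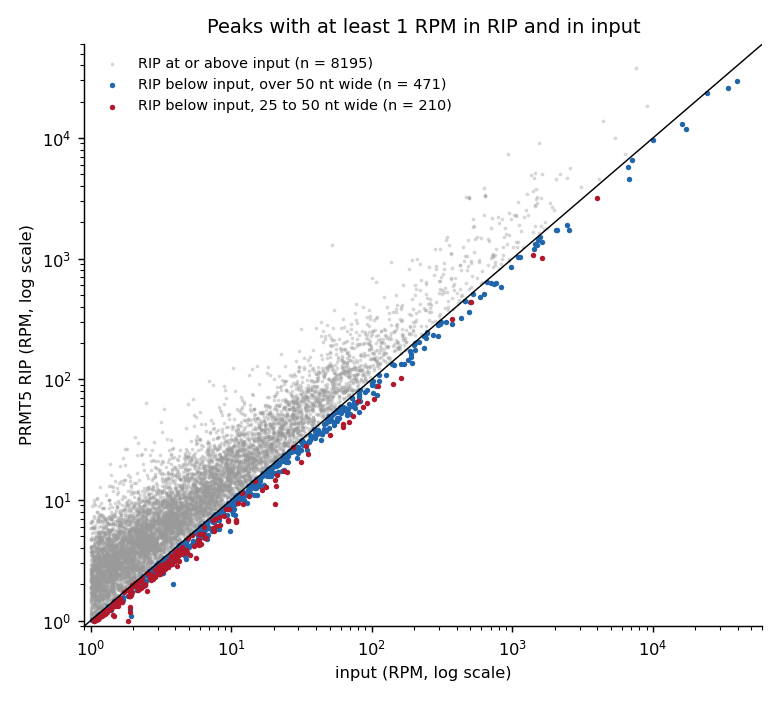
RIP RPM (y axis, log scale) against input RPM (x axis, log scale) for the 8876 well-covered peaks, each point 1 peak and the line marking equal values. The 681 peaks below the line lie close to it, 210 of them are 25 to 50 nt wide, and the peaks with the highest input values of all are below the line.

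The strongest single depletion was a 25 nt peak in H3P6, a histone H3 pseudogene, at chr2:174720033-174720057 on the plus strand, with 9.23 RPM in RIP and 20.4 RPM in input (ratio 0.452). Whether its reads come from this copy or from other H3 genes was not tested. TULP4, which encodes a tubby-like protein, followed with a 25 nt peak at 1.00 and 1.85 RPM and a second one of 50 nt nearby at 1.17 and 1.90 RPM, both near the minimum. PTP4A2, a protein tyrosine phosphatase, had a 25 nt peak at 3.29 and 5.58 RPM. Wide intervals were also among the 10 lowest ratios: a peak of 7212 nt in ZMYM6 stood at 1.10 and 1.93 RPM, one of 21163 nt over OBI1-AS1 on chromosome 13 at 2.02 and 3.88 RPM, and one of 46840 nt over ADAT1 and TMEM231 at 5.51 and 9.81 RPM.

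At the other end of the scale, the 681 peaks included the most abundant RNAs of the input. They carried 43.9% of the list's summed input RPM and 23.2% of its summed RIP RPM, and their 10 highest peaks held 77.0% of their own input RPM. Because 44 of the 681 overlapped another peak on the same strand, reads under the overlaps can enter these sums more than once. The share of well-covered peaks that lay below input was 4.16% (99 of 2381) at 1 to 2 RPM of input, 7.61% (114 of 1499) at 4 to 8 RPM, 11.7% (59 of 503) at 32 to 64 RPM, 14.3% (9 of 63) at 512 to 1024 RPM and 33.8% (24 of 71) above that. Input RPM enters the ratio, so this order is a description. Median input was 7.77 RPM at the 681 peaks and 3.86 RPM at the others. For this reason, shares among peaks of similar input, below, weight the other peaks to the input RPM of the 681. The weighting used 10 classes of equal size, also for gene list shares given as 1 value against another. The highest class has no upper limit, and the other peaks reached 9042 RPM against 39699 RPM among the 681. The most abundant RNAs are thus set against peaks of lower input. Shares by width class, within lncRNA peaks or among promoter starts are not weighted this way.

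**Figure D2:**
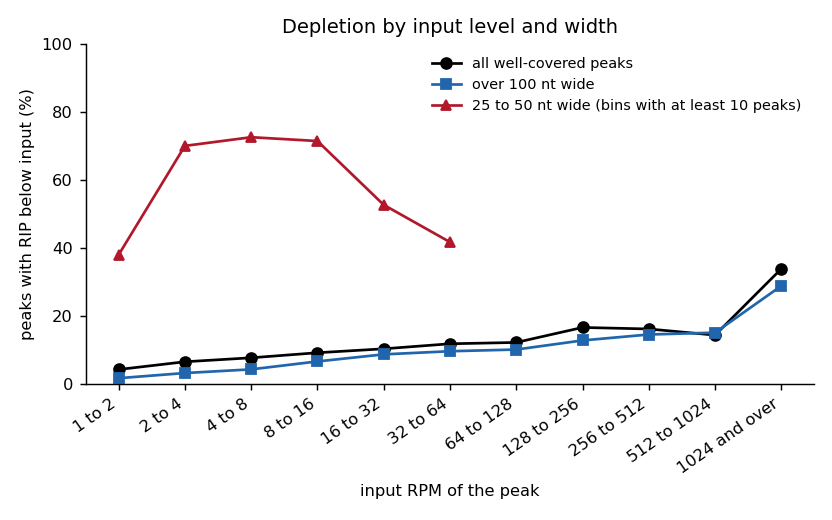
Share of well-covered peaks with RIP below input (y axis, %) by input RPM (x axis, classes that double), for all peaks, for peaks over 100 nt and for peaks of 25 to 50 nt. The share over all peaks went from 4.16% in the lowest class to 33.8% in the highest, while narrow peaks stood between 37.9% and 72.5% wherever a class held at least 10 of them.

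Small structural RNAs made by RNA polymerase III headed the list. RPPH1, the RNA subunit of RNase P, the enzyme that trims the 5′ ends of tRNAs, had the highest input value of all, with 29831 RPM in RIP and 39699 RPM in input over 350 nt at chr14:20343073-20343422, minus strand (ratio 0.751). RN7SL2, a 7SL RNA of the signal recognition particle, had 25757 and 33912 RPM in one peak and 4603 and 6793 RPM in a second (ratios 0.760 and 0.678). Another 7SL gene, RN7SL1, had a 25 nt peak at 3148 and 4022 RPM, and RN7SL3 a 50 nt peak at 1076 and 1407 RPM. RN7SK, the RNA that holds the transcription factor P-TEFb inactive, stood at 11773 and 17187 RPM (ratio 0.685).

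Of the 9 well-covered peaks on RNase P, RNase MRP, 7SK, 7SL, telomerase and related RNAs, 6 were below input. They made up 0.881% of the 681 peaks against 0.0942% of other peaks in the same input classes. All 6 had input above 1024 RPM, where 33.8% of all well-covered peaks lay below input. The remaining 3 were above it: RMRP, the RNase MRP RNA related to RNase P, had 37999 RPM in RIP and 7524 RPM in input (ratio 5.05), TERC, the telomerase RNA, had 294.88 and 79.0 RPM, and a 49 nt peak of RN7SL3 had 186.20 and 154.92 RPM. RNase P and RNase MRP RNA, which share most of their protein subunits, thus lay on opposite sides of input. The 7SL genes are near-identical copies, and pseudogene copies were also among the 681 (RN7SKP203 at 506 and 623 RPM, RN7SL4P at 314 and 369 RPM, RN7SL5P at 17.07 and 24.98 RPM), so the assignment of reads among them is uncertain. None of the 16 well-covered snRNA peaks was below input, and their median ratio was 1.34. The snoRNAs and scaRNAs gave 5 of 35 peaks, led by SNORD35A (135 and 139 RPM), a guide RNA inside the ribosomal protein gene RPL13A. They made up 0.734% of the 681 peaks (95% Wilson interval 0.314 to 1.71%) against 0.446% of other peaks of similar input, which the interval covers.

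Transcripts of the mitochondrial genome were the other abundant class. Of 41 well-covered mitochondrial peaks, 22 lay below input, 3.23% of the 681 against 0.416% of other peaks in the same input classes. By strand, 21 of 33 peaks on the plus strand, which carries most mitochondrial genes, and 1 of 8 on the minus strand were below input. That one was MT-ND6, the single protein-coding gene of the minus strand, with 1038 RPM in RIP and 1130 RPM in input. Strand cannot be told apart from RNA type here, since the minus strand has no other mRNA and tRNA peaks were below input at 2 of 11. MT-CO1, a cytochrome c oxidase subunit, was below input at all 4 of its peaks, with 1010 and 1630 RPM at the 5′-most, 9623 and 9945 RPM at the next, 5770 and 6641 RPM at the one after it and 440 and 510 RPM at the last. MT-CO2 had 13083 and 15939 RPM in its single peak (ratio 0.821), and 1 peak of 1500 nt over MT-ATP8, MT-ATP6 and MT-CO3 had 23427 and 24114 RPM (ratio 0.972).

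Among mitochondrial genes, the ribosomal RNAs were below input at 7 of 8 peaks. MT-RNR1, the 12S rRNA, had 32.9 and 39.5 RPM at one peak and 35.2 and 41.0 RPM at the other. Of the 6 peaks of MT-RNR2, the 16S rRNA, the widest, of 525 nt, was above input with 92.9 and 65.5 RPM, and the other 5 had ratios between 0.776 and 0.893. Of the mitochondrial mRNA peaks 12 of 18 were below input, and of the tRNA peaks 2 of 11: MT-TM (18.0 and 18.3 RPM) and MT-TG (2.04 and 2.05 RPM). The 5 lowest ratios of the class were at narrow peaks: the 50 nt peaks at the 5′ ends of MT-CO1 and MT-ND5 stood at 0.619 and 0.651, and 25 nt peaks in MT-ND4, MT-ATP8 and MT-ND5 at 0.640, 0.667 and 0.679. Other narrow mitochondrial peaks had higher ratios, up to 0.995 at MT-TG. Nuclear copies of mitochondrial genes on chromosome 1 were among the 681 as well (MTND1P23 at 55.6 and 56.9 RPM, MTND2P28 at 45.88 and 51.01 RPM, MTCO1P12 at 10.7 and 13.4 RPM).

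Most of the 681 peaks nonetheless came from nuclear mRNAs. Protein-coding genes held 506 of them (74.3%, against 81.0% of other peaks of similar input), lncRNAs 35 (5.14% against 2.88%), pseudogenes 18 (2.64% against 2.12%), snoRNAs 4, other small RNAs 7, the mitochondrial genome the 22 above and the TRB locus 1, while 88 had no class. Among the lists of protein-coding genes, cytosolic ribosomal proteins, translation factors, proteasome subunits, nuclear respiratory chain subunits, glycolytic enzymes and chaperones had larger shares of the 681 peaks than of other peaks of similar input. Mitochondrial ribosomal proteins, aminoacyl-tRNA synthetases, and SR proteins and hnRNPs did not. Peaks of 1 gene share their source and are not independent counts.

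Cytosolic ribosomal proteins gave 44 of the 681 peaks (6.46% against 3.35% of other peaks of similar input), from 24 of the 73 ribosomal protein genes with a well-covered peak. RPL29, a large subunit protein, had 1740 and 2530 RPM in its main peak (ratio 0.688) and was below input at 3 of its 4 peaks. RPS18, a small subunit protein, had 1728 and 2029 RPM, and RPL32 had 1366 and 1633 RPM in their highest peaks. RPS15A was below input at both of its peaks, of 25 nt each, with 20.6 and 31.3 RPM and 13.0 and 20.6 RPM. All 4 well-covered peaks of RPL26 were below input, with ratios of 0.804 to 0.834. Its peaks of 75 nt lie inside its peak of 2465 nt on the same strand, so they are not separate regions. All 4 peaks of RACK1, a scaffold protein of the small subunit, were below input as well, with ratios of 0.646 to 0.879. The ribosomal protein peaks as a whole were above input, with a median ratio of 1.47 over 172 peaks.

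Translation factors showed the same split. They gave 22 of their 93 well-covered peaks (3.23% of the 681 against 1.10% of other peaks of similar input), and their median ratio over all 93 was 1.45. EEF1A1, which brings aminoacyl-tRNA to the ribosome, was below input at 4 of 7 well-covered peaks. Towards the 3′ end its peaks had 480 and 585 RPM, 846 and 983 RPM, and 443 and 457 RPM, with a 25 nt peak of 40.2 and 61.9 RPM (ratio 0.649) and one above input, at 952 and 937 RPM, between them. The 5′-most peak, in contrast, had 2.07 and 1.16 RPM and lies upstream of the RefSeq start of the gene. One of 50 nt over that start had 34.98 and 21.97 RPM, and both were above input. EEF2, the translocation factor, was above input at the 5′-most peak (211 and 148 RPM) and below it at the others (57.6 and 76.1 RPM, 280 and 295 RPM).

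Many mRNAs of the translation machinery begin with a C and a run of pyrimidines, the 5′ terminal oligopyrimidine (TOP) motif, through which growth signals control their translation. The sequences around the RefSeq start of 5 genes with peaks below input are shown because they have this motif, and each window spans the annotated start. Capitals mark the pyrimidine run from the annotated start on, and 10 bases before the start are given.
RPL29: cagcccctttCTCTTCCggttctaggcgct
RPS3A: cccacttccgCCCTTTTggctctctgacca
RACK1: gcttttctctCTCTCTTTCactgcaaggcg
EEF1A1: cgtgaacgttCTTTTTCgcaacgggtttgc
EEF2: cgtcagcgttCTCTTCCgccgtcgtcgccg
The windows (GRCh38.p14) are chr3:51995876-51995905, minus strand, chr4:151099618-151099647, plus strand, chr5:181243887-181243916, minus strand, chr6:73521013-73521042, minus strand, and chr19:3985444-3985473, minus strand. A start with a C followed by at least 4 bases that were each C or T was found in 53 of 295 protein-coding genes with a peak below input that had a RefSeq start sequence (18.0%). Other protein-coding genes of similar summed input had it in 12.7%, and 4.07% of all 35116 RefSeq promoter windows had it. Without ribosomal protein and translation factor genes the shares were 13.3% (36 of 270) and, in other genes without regard to input, 7.79% (229 of 2940). Where the motif was allowed to begin within 5 bases of the annotated start, 38.0% and 33.6% of genes had it. The searched letters say nothing of which start these cells use.

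Proteasome subunits gave 17 of the 681 peaks (2.50% against 0.869%) out of 73 well-covered ones, from 7 genes. Over 50 nt wide, a limit chosen after seeing the data, the shares were 1.70% and 0.964%. PSMA1, a subunit of the proteasome core, had 3 peaks of 25 to 50 nt within 200 nt, at 6.61 and 10.79, 6.71 and 10.84, and 6.77 and 10.84 RPM, so the 3 carry nearly the same values. The only other peak of PSMA1, far upstream, was above input at 1.01 and 0.47 RPM. PSMA4, another core subunit, was below input at all 4 of its peaks (ratios 0.822 to 0.959). PSMB2 was below input at all 3, the highest with 73.9 and 80.5 RPM, and PSMB3 at 3 of 4, the highest of these with 22.1 and 29.4 RPM. A gene without a symbol here, whose peaks touch PSMA6, had 4 of 5 below input, the highest with 51.6 and 69.6 RPM.

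Energy metabolism contributed in both compartments. Respiratory chain subunits encoded in the nucleus gave 22 peaks (3.23% against 1.73%) from 18 of 65 genes. COX6A1, a cytochrome c oxidase subunit, had 296 and 311 RPM at one peak and 131 and 143 RPM at another, UQCRH, of complex III, had 201 and 202 RPM, and COX6B1 had 194 and 200 RPM. Glycolytic enzymes gave 8 of 35 peaks (1.17% against 0.504%), from 4 genes. GAPDH had 1726 and 2060 RPM in its main peak (ratio 0.838), GPI had 74.0 and 109 RPM in a peak of 13040 nt that also touches PDCD2L (ratio 0.679), and PKM, pyruvate kinase, had 57.1 and 67.4 RPM and 37.9 and 41.4 RPM in its highest peaks below input. Chaperones gave 12 of 84 peaks (1.76% against 0.913%), with PPIA, a prolyl isomerase, at 205 and 218 RPM, HSP90AB1 at 42.6 and 45.7 RPM and CCT3, a chaperonin subunit, at 9.38 and 12.8 RPM. Over 50 nt wide, the chaperone shares were closer, 1.27% and 0.924%. The 95% Wilson intervals of the glycolytic and chaperone shares began at 0.596% and 1.01%, just above their comparison values.

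The other lists are given beside the level of comparable peaks. Of those named in this paragraph, the histone list alone had a 95% Wilson interval that excluded this level. The shares of the rest are not told apart from it. Replication-dependent histone genes gave 1 of 60 peaks (0.147% against 1.91%), namely H3C1 with 285 and 303 RPM, and their median ratio was 2.69. The list of SR proteins and hnRNPs, families that act in splicing, gave 5 of 91 (0.734% against 1.16%), with SRSF7 at 6.80 and 7.33 RPM. This list also held NPM1, which belongs to neither family and gave 2 of the 5, the higher at 16.7 and 16.9 RPM. Mitochondrial ribosomal proteins gave 8 of 111 (1.17% against 1.45%), and MRPL11 had the lowest ratio of the 4 highest, 0.707, at 6.74 and 9.53 RPM. The cytoskeleton list gave 5 of 60 (0.734% against 0.992%), led by TUBA1B, an alpha tubulin, at 512 and 524 RPM. Sm and LSm proteins, among them known PRMT5 substrates, gave 2 of 25 (0.294% against 0.376%), SNRPE at 9.18 and 10.58 RPM and SNRPB2 at 3 and 3.13 RPM. Aminoacyl-tRNA synthetases gave 1 of 25 (0.147% against 0.279%), KARS1 at 3.14 and 3.28 RPM. MHC class I presentation gave 2 of 10 and was above that level (0.294% against 0.113%), with B2M, the light chain, at 3.27 and 4 RPM and HLA-C at 1.93 and 2.29 RPM. PRMT5 and its cofactors gave 0 of 10 (0% against 0.106%): the 4 peaks of PRMT5 itself stood at ratios from 1.01 to 1.91.

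T cell marker genes had 5 of 27 well-covered peaks below input (0.734% against 0.360%), and all 4 genes concerned were above input elsewhere. ZAP70, the kinase that binds the activated T cell receptor, had 4.26 and 1.39 RPM at its 5′-most peak, 68.7 and 40.4 RPM at the next, 27.6 and 29.9 RPM at the one after it and 53.7 and 45.5 RPM at the last. LAT, its adaptor substrate, had 45.7 and 25.9 RPM at the 5′-most peak, 5.23 and 6.12 RPM and 21.2 and 23.9 RPM at the inner ones, and 55.9 and 45.9 RPM at the last. CD7 was below input at 1 inner peak (15.9 and 18.5 RPM) of 4. In CD3E, a peak of 10933 nt had 115.66 and 96.1 RPM, and a 25 nt peak next to it had 1.44 and 1.63 RPM. In each of these 4 genes the 5′-most peak had the highest ratio of the gene. A 25 nt peak of TRB, the T cell receptor beta locus, had 14.6 RPM in RIP and 20.6 RPM in input (ratio 0.710).

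The 681 peaks were narrower than comparable peaks. Their median width was 225 nt, against 1449 nt for other peaks of similar input. Width here is the genomic span from the first to the last base, any introns included, and not a length of RNA. It reached 541485 nt among the 681. Peaks of exactly 25 nt, the narrowest in the list, made up 138 of the 681 (20.3%) and 0.454% of other peaks of similar input. Seen the other way, 138 of 183 well-covered 25 nt peaks (75.4%, 95% Wilson interval 68.7 to 81.1%) were below input. The share was 35.8% (72 of 201) at 26 to 50 nt, 13.7% (69 of 503) at 51 to 100 nt, 5.80% (75 of 1292) over 100 and up to 250 nt, and between 4.14% and 6.05% in the wider classes. The interval covers the counting of peaks only. The median log2 ratio of all well-covered peaks went from −0.16 at 25 nt to 0.08, 0.38, 0.78 and 1.06 in the next 4 classes, and was 0.88 over 5000 nt.

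A 25 nt peak with at least 1 RPM is densely covered, and few 25 nt peaks were: 183 of 2856. Of the 2666 that were under 1 RPM in RIP or input and above 0 in input, 33 lay below input, and their median log2 ratio was 1.07. The other peaks were also matched on input RPM per nucleotide of genomic width, any introns included, rather than on input RPM. This left 2.87% of them at 25 nt and a median width of 425 nt, still against 20.3% and 225 nt among the 681. Where input was at least 10 RPM per 100 nt, 70.4% of 142 peaks of up to 50 nt and 21.4% of 443 peaks over 100 nt were below input. This match was chosen after seeing the data.

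Among well-covered peaks, narrow ones had lower ratios than wide peaks of the same gene. In 280 genes, 329 well-covered peaks of up to 50 nt could be set against well-covered peaks over 100 nt, and 281 of the 329 (85.4%) had a ratio under the median of those wide peaks, with a median difference of −0.51 on the log2 scale. For these narrow peaks the median log2 ratio was −0.04, and for their wide counterparts 0.54. This comparison took in all narrow well-covered peaks, below input or not. It uses the ratio and the 1 RPM minimums of the rule, so it is a description. Peaks of 25 nt under the minimum had a median log2 ratio of 1.07. How much of the difference the minimum sets was not tested. Peaks below input, of any width, often adjoined others: 328 of the 681 (48.2%) had another peak of their gene within 100 nt, against 31.9% of other peaks of similar input, and 159 of them lay in 70 runs of at least 2 neighbours below input. The 681 peaks thus form 592 separate runs. For 13 of them, the nearest peak within 100 nt had RIP and input RPM within 1.05 times their own, as in PSMA1, and whether such neighbours count the same reads was not tested.

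Along the gene, the 681 peaks lay away from the 5′ end. In genes with at least 2 peaks, 83 of 592 (14.0%) were the 5′-most peak, against 34.1% of other peaks of similar input, 304 were inner peaks and 205 (34.6%, against 31.6%) were the 3′-most. Of all well-covered 5′-most peaks 3.65% were below input, of inner peaks 11.5% and of 3′-most peaks 9.44%. Peaks that were the only one of their gene made up 13.1% of the 681, against 23.7%. With peaks of up to 50 nt left out, a limit chosen after seeing the data, the 5′-most share was 16.2% against 34.0%.

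Single genes show this order. GAPDH went from a ratio of 1.60 (61.0 and 38.2 RPM) at its 5′-most peak through 1.53 and 1.04 to 0.838 and 0.995 at the last pair, counting well-covered peaks. RPS3A, a small subunit protein, had 106 and 88.8 RPM at the 5′-most peak, then 235 and 273, 138 and 192, and 42.8 and 62.0 RPM below input, and 2.23 and 2.03 RPM at the last. In RACK1 and MT-CO1, no peak was above input, and the 5′-most peak of MT-CO1 had the lowest ratio of the gene.

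Whole genes were seldom below input. Of the 495 identifiers, 363 had 1 such peak, 93 had 2 and 39 had 3 or more. Among 382 identifiers with at least 2 well-covered peaks, 31 had every one below input. All peaks of an identifier were then summed, overlapping ones included, as in RPL26. The sum was lower in RIP than in input for 174 of the 495 and not for 321. Over the 5485 identifiers in the list with both sums at or above 1 RPM the same 174, or 3.17%, were lower. The sum was 1254 RPM in RIP and 1570 RPM in input for RACK1 (ratio 0.799), 2112 and 3010 RPM for RPL29 (0.702) and 946 and 1144 RPM for RPL26 (0.827), but 256 and 247 RPM for PKM (1.04, with 3 of its 5 well-covered peaks below input). For TPD52L2, with 4 of 7 well-covered peaks below input, the sums were 55.3 and 55.7 RPM.

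Peaks of long noncoding RNAs, below input or not, mostly lay across from a peak of the other strand. The share was 24 of 35 (68.6%) among those below input and 61.1% among the 265 other well-covered lncRNA peaks, not weighted by input. Of the protein-coding peaks below input it was 13.6%. The highest was TUBA1B-AS1 with 443 and 457 RPM, opposite the peak of TUBA1B at 512 and 524 RPM. An unnamed transcript opposite GAPDH had 628 and 759 RPM (ratio 0.827), beside 1726 and 2060 RPM (0.838) on the GAPDH strand. In such pairs, reads of 1 strand that were counted on the other cannot be told apart from antisense RNA here. Over all 681 peaks, the share with an opposite-strand overlap, 21.3%, was close to that of other peaks of similar input, 21.1%. ZFAS1, a snoRNA host gene whose peaks below input had no such overlap, was below input at 4 of 5 peaks, the highest with 21.3 and 23.1 RPM. It gave all 4 of the peaks below input among the 28 of the abundant lncRNA list.

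Wide peaks below input sometimes contained copies of the same abundant genes. Of the 128 peaks over 5000 nt, 8 (6.25%) overlapped an annotated ribosomal protein pseudogene, against 2.51% of other peaks over 5000 nt of similar input, at median widths of 11284 and 10933 nt. A peak of 15446 nt in AMBRA1 had 69.8 and 71.7 RPM, of which the 250 nt peak on RPS10P19 inside it had 55.5 and 63.2 RPM. ERGIC3 had 43.7 and 53.7 RPM in a peak of 5823 nt that contains RPL36P4. Over all widths, 26 of the 681 peaks overlapped such a pseudogene (3.82% against 2.23%), but up to 1000 nt, where 453 of the 681 lay, the share was no larger than in other peaks (3.75% against 3.90%). Reads there cannot be separated from those of the parent genes in these files.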

How the data were processed

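The authors deposited 1 peak list for 2 PRMT5 RIP and 2 input libraries of Jurkat cells. Per the file headers it gives, for each peak, RPM in RIP and in input, deposited as pooled values rounded to 0.01. The deposited log2 fold change (log2FC), score, p-value and FDR compare RIP with input and are the authors' peak caller's; p-value, score and FDR were not used, and log2FC served only to set the RPM scale beside the caller's. The submitters' processing notes name fastp, HISAT2 and hg38, with no version or role; the peak caller and the pooling are not given in the sources used here. The kit marks strand, and how strand entered the counting is not given. Read depth is unknown, since RPM at this rounding does not give whole reads, so no counting interval was computed for RPM.

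Peaks were selected on RPM as stated in the report. Starts were raised by 1. Each peak took its first-listed identifier. Symbols came from identifier and symbol pairs of the authors' supplement (names only), and otherwise from the RefSeq gene of GRCh38.p14 that most peaks of an identifier touched (at least 50%, with no rival). Of 8490 identifiers 7132 were named, and 777 of 777 that were named in both ways had the same gene. A peak with at least 50% of its bases in a small RNA gene was named by it. Other well-covered peaks were weighted to 10 input classes cut on the peaks below input, a step tested on simulated data. The genes named are the peaks with the highest input, the lowest ratio, the most peaks per gene, the highest input per RNA class and list, those next to the limits, the T cell markers and GAPDH, and further peaks of these genes; RMRP, TERC, PSMA6, RPS3A, the copies in wide peaks and the printed sequences were picked with their values known. Some items that this rule names are not reported here. The members and the gene lists were chosen with earlier results of these data known, and the lists were trimmed to gene family members after values were seen. NPM1 nonetheless stayed in the list of SR proteins and hnRNPs. Alternatives covered the RPM minimum, the ratio, rounding, strand overlap, identifiers, classes, pseudocounts and, added after seeing the data, width and the caller's log2FC. Sequences are RefSeq's (windows from 250 bases before to 50 after a start); a genome was not used here. Python 3.11.15, pandas 2.3.3, numpy 2.4.6, scipy 1.17.1 and matplotlib were used.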

Additional observations from a re-analysis of the deposited data

How the results depend on the processing

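No paired analysis was possible because the list holds 1 pooled value for RIP and 1 for input, and for the same reason no replicate could be left out. The direction of a ratio below input rests on the RPM scale: with the peak caller's log2FC in its place, chosen after seeing the data, the median of the 681 peaks was 0.61 and 10 well-covered peaks were below 0. The count of 681 peaks was 388 and 284 at minimums of 5 and 10 RPM, 128 at a ratio of 0.8 or less and 1 at 0.5 or less, and the 495 genes were 289 and 216 at those minimums. The median log2 ratio was −0.13 with a pseudocount of 1. Protein-coding genes held 81.5% of peaks against 87.0% without opposite-strand overlaps, 85.5% against 92.6% among named peaks, and the comparison value was 79.3% and 78.0% at minimums of 5 and 10 RPM; the 681 peaks had the lower share under all 7 alternatives. Without opposite-strand overlaps the median width was 150 nt against 1590 nt, and 425 nt was the comparison value when matched on RPM per nucleotide. In genes with at least 4 peaks the 5′-most share was 8.61% against 22.6%, and the 3′-most share was 17.5% against 19.7%, so the small 3′ excess turned. At a ratio of 0.8 or less, the shares were 10.9% against 5.39% for ribosomal proteins, 5.47% against 1.48% for translation factors, 4.69% for proteasome subunits, 4.69% against 2.19% for nuclear respiratory subunits, 4.69% for the RNase P, 7SK and 7SL list, 3.91% against 0.698% for mitochondrial mRNAs, a comparison value of 0.0959% for mitochondrial rRNAs, and 0 for cytoskeleton, SR proteins and hnRNPs, snoRNAs and T cell markers, so that snoRNAs and T cell markers fell under their comparison. For ribosomal proteins the comparison value was 2.92% with 5 classes, 4.10% without opposite-strand overlaps and 4.26% over 50 nt. For 25 nt peaks it was 2.87% when matched on RPM per nucleotide.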

Other observations

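The list limits what these values can show. A difference of a few percent between RIP and input, as at the 330 peaks with a ratio of at least 0.9, cannot be set against the spread between libraries. Peaks of 1 gene come from the same transcripts and are not independent, 89 of the 681 have no symbol, and reads of near-identical copies (7SL, 7SK, ribosomal proteins, mitochondrial copies) cannot be separated. The part of the peak caller's choice of peak edges in the difference by width was not tested.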
